A study of Mus musculus with 2 samples.

Results

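The class III receptor tyrosine kinases were taken as the genes Kit, Flt3, Csf1r, Pdgfra and Pdgfrb, found by symbol among the gene rows of both libraries, together with every transcript listed under them. They are 5 of 43346 Ensembl gene rows and 5 of 21461 nuclear protein-coding genes, and they hold 15 of the 103639 transcripts listed for those rows. These receptors share an extracellular part of immunoglobulin-like domains, a single membrane span and a split intracellular kinase domain. A ligand that is itself a dimer brings a pair of receptors together, the kinases phosphorylate each other, and adaptor proteins bind the phosphotyrosines and pass the signal to the PI3K, RAS-MAPK and STAT routes. In bone marrow KIT, the receptor of stem cell factor, is needed for the growth and survival of stem cells, early erythroid progenitors and mast cells. FLT3 acts in multipotent and lymphoid progenitors and dendritic cells, CSF1R in monocytes and macrophages, and the PDGF receptors mainly in stromal and mural cells.

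The samples were megakaryocyte-erythroid progenitors (MEP), bone marrow cells with erythroid and megakaryocytic potential, from male C57BL/6J mice aged 5 to 6 weeks. The labels list no genetic change and no treatment. The 1 group held 2 libraries of rRNA-depleted RNA made with the ScriptSeq kit, each from 100 ng. Their size range was 200 to 1000 in replicate 1 and 215 to 1000 in replicate 2, with no unit stated. The donor entry is shared by the libraries, and no source states that they come from different mice, so their spread may be technical. With 2 libraries and no second condition no difference was tested (a two-sided exact sign test on 2 values cannot give a p under 0.5), and every value is a description.

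The libraries held 39919884 expected counts (estimated reads or fragments per gene) in replicate 1 and 48043010 in replicate 2. Nuclear protein-coding genes took 25.5% of the TPM in replicate 1 and 20.6% in replicate 2, since TPM, the share of transcripts after division by length, was scaled over all rows. TPM rescaled to the same total over those genes alone, with globin genes left out, is given beside it where it matters. KIT is a usual sorting marker of MEP and the gates were not read here, so the presence of Kit is a check of the label. Of the other genes of the usual gate, Ly6a, which encodes Sca-1, had 0 counts in both libraries and Fcgr3 had 0.60 TPM in replicate 1 and 0.42 in replicate 2. Fcgr2b, the other Fc receptor gene of the gate, had 119 expected counts (1.03 TPM) in replicate 1 and 0 in replicate 2, and Il7r, the lymphoid interleukin receptor gene, had 56 (0.21 TPM) in replicate 1 and 450 (1.12 TPM) in replicate 2. Cd34, whose product is low or absent on MEP, had 18.3 in replicate 1 and 1.44 in replicate 2. Ptprc, the pan-leukocyte gene for CD45, had 27.0 and 23.9 in replicates 1 and 2.

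Kit made up nearly all of the receptor family in MEP. Its TPM was 43.0 in replicate 1 (the authors' deposited interval was 41.2 to 44.2) and 27.9 in replicate 2 (27.4 to 28.3), a mean of 35.5 ± 10.7 (SD, n = 2), on 16866 and 18517 expected counts. It took 93.4% of the summed TPM of the 5 genes in replicate 1 and 96.0% in replicate 2. Among protein-coding genes it ranked 966 in replicate 1 and 1223 in replicate 2, at percentiles 95.5 and 94.3. In bulk RNA the number of cells that carry a transcript and the amount of it per cell cannot be told apart. Kit (ENSMUSG00000005672.8) lies at chr5:75574916-75656722 of mm10 on the plus strand.

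**Figure D1:**
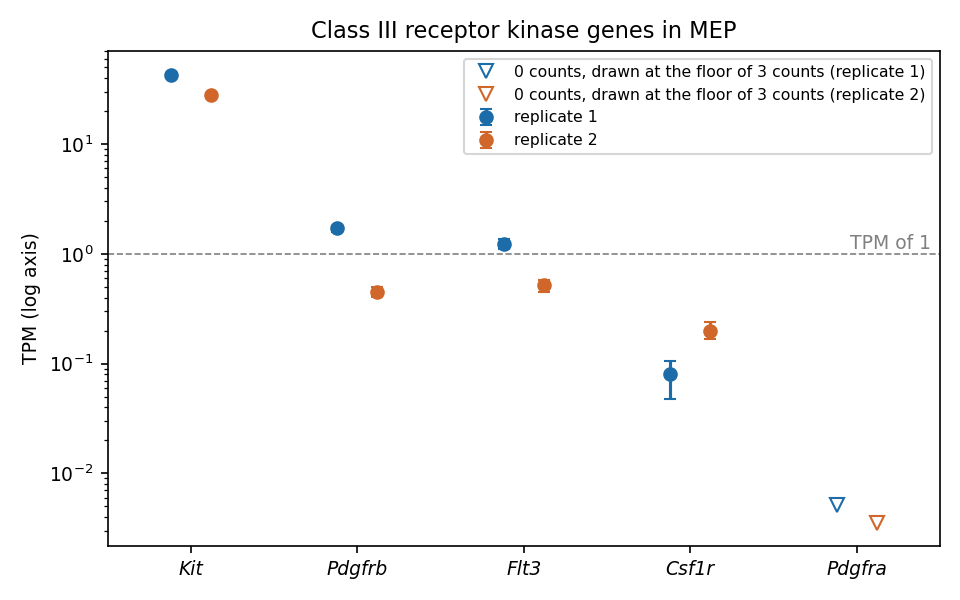
TPM of the 5 receptor genes on a log axis, with points for the 2 libraries and bars for the deposited interval of the TPM. Kit stands at 43.0 and 27.9, Pdgfrb and Flt3 between 0.45 and 1.71, Csf1r at 0.08 and 0.20, and Pdgfra, with 0 counts, is drawn at the floor of 3 counts.

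Kit came from a pair of coding transcripts, and the libraries differed in which of them led. Kit-201 (ENSMUST00000005815.6, 5214 bases) and Kit-204 (ENSMUST00000144270.3, 5241 bases) differ inside the coding sequence by 12 bases at the end of exon 9, chr5:75639147-75639158. These 12 bases are 4 codons just before the membrane span, and receptor forms with and without these residues are a known pair of KIT splice forms. The sequences across the junction of exons 9 and 10 are printed because those 12 bases are the only coding difference that separates the pair. They run from chr5:75639117 through the end of exon 9 and then over chr5:75640493-75640522. The sequence comes from GENCODE M21 transcripts on the GRCm38 assembly (mm10), plus strand, and capitals mark the 12 bases that Kit-204 lacks.

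Kit-201: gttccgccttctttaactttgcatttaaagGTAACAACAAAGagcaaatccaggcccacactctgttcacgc

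Kit-204: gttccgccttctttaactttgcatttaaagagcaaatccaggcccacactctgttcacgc

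Kit-201, with the 12 bases, had a transcript TPM of 28.1 in replicate 1 (25.1 to 29.4) and 7.58 in replicate 2 (5.91 to 9.43). Kit-204, without them, had 8.26 in replicate 1 (6.50 to 10.7) and 19.9 in replicate 2 (17.7 to 21.3). The 2 libraries gave the pair opposite orders, and within neither library did the deposited intervals overlap. Kit-204 was 22.7% of the pair in replicate 1 and 72.4% in replicate 2. The deposited posterior SD of the Kit-201 count was 2.88% of the pair's counts in replicate 1 and 3.27% in replicate 2, smaller than the distance between the libraries. Beyond the 12 bases, Kit-204 is set apart by 39 noncoding bases at its start, chr5:75574916-75574954, and only reads over those places tell the pair apart.

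A change of leading transcript was common in these libraries. Of 6363 protein-coding genes with at least 2 transcripts and at least 1 TPM in each library, 27.4% had another leading transcript in replicate 2 than in replicate 1. Kit was among them. The share takes in any change of the leading transcript, with no rule on intervals. It therefore does not show how common a change as large as that at Kit was.

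Of the 4 Kit transcripts that keep an intron, 1 differed between the libraries, Kit-203. Kit-203 (ENSMUST00000143221.1, 648 bases) begins with 233 bases of the intron before exon 4, chr5:75610574-75610806. The border of that intron is printed because only its bases set Kit-203 apart from spliced Kit. The line covers chr5:75610777-75610836 of GRCm38, plus strand, from the same source, with the intron in lower case and the first bases of exon 4 in capitals.

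Kit-203: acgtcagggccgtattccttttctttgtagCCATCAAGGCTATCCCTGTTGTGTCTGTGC

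Kit-203 had 243 expected counts and a TPM of 6.25 (4.77 to 7.63) in replicate 1, and 2.15 expected counts and a TPM of 0.04 in replicate 2. Its share of the gene's TPM was 14.5% in replicate 1 and 0.14% in replicate 2, but its share of the gene's counts was 1.44% in replicate 1 and 0.01% in replicate 2. A short transcript weighs more per count in TPM than a long one. Kit-205, another retained-intron transcript, had 0.34 TPM in replicate 1 and 0.44 in replicate 2 with overlapping intervals, and Kit-202 and Kit-206 were listed at 0 in both.

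The size of the difference between the libraries in Kit depended on the scale. The gene's TPM was 1.54-fold higher in replicate 1. Kit-201 and Kit-204 together had 36.4 TPM in replicate 1 and 27.4 in replicate 2, 1.33-fold higher in replicate 1, a choice of transcripts made after seeing the data. In TPM rescaled to protein-coding genes Kit had 168 in replicate 1 and 136 in replicate 2, 1.24-fold higher in replicate 1. In counts scaled by TMM, which use no length, the ratio was 1.06-fold. The effective length the authors used for the gene, which follows the mix of transcripts, was 4297 bases in replicate 1 and 4933 in replicate 2.

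**Figure D2:**
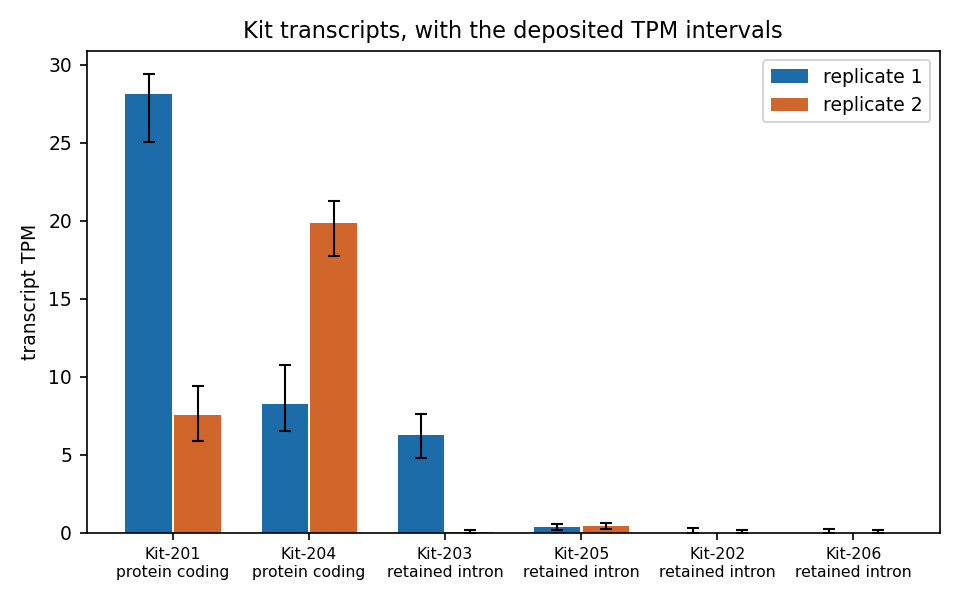
Transcript TPM of the 6 Kit transcripts, with 1 bar for each library and error bars for the deposited interval. Kit-201 is the taller of the coding pair in replicate 1 (28.1 against 8.26) and Kit-204 in replicate 2 (19.9 against 7.58), and Kit-203 reaches 6.25 in replicate 1 alone.

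Pdgfrb and Flt3 came next, at levels close to each other and far under Kit. Pdgfrb, the receptor gene for PDGF-B and PDGF-D (ENSMUSG00000024620.7, chr18:61045150-61085061, plus strand), had 808 expected counts and a TPM of 1.71 (1.58 to 1.81) in replicate 1. In replicate 2 it had 314 expected counts and a TPM of 0.45 (0.40 to 0.50), giving a mean of 1.08 ± 0.89 (SD, n = 2). Flt3, the receptor gene for FLT3 ligand (ENSMUSG00000042817.13, chr5:147330741-147400489, minus strand), had 389 expected counts and a TPM of 1.24 (1.11 to 1.35) in replicate 1. In replicate 2 it had 238 expected counts and a TPM of 0.52 (0.45 to 0.58), giving a mean of 0.88 ± 0.51 (SD, n = 2). Both were higher in replicate 1, and neither reached a TPM of 1 in replicate 2.

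Kit exceeded Pdgfrb by 4.65 in replicate 1 and 5.96 in replicate 2 on the log2 TPM scale, a mean of 5.30 ± 0.92 (SD, n = 2). Over Flt3 the Kit level was 34.7-fold higher in replicate 1 and 53.7-fold in replicate 2. Pdgfrb over Flt3 was 0.46 in replicate 1 and -0.21 in replicate 2 on the log2 TPM scale. Their intervals were apart in replicate 1, with Pdgfrb higher, and overlapped in replicate 2, so the libraries gave no common order. All expected counts of Flt3 were given to the coding transcript ENSMUST00000049324.10, and the other 2 transcripts listed under the gene had 0. All expected counts of Pdgfrb were given to Pdgfrb-201, while the posterior mean count gave Pdgfrb-202 13.8 of them in replicate 1 and 10.7 in replicate 2.

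Csf1r, the receptor gene for CSF1 and IL-34 (ENSMUSG00000024621.11, chr18:61100598-61132149, plus strand), was near the limit of counting. It had 25 expected counts (exact Poisson 95% interval 16.2 to 36.9, counting error only) and a TPM of 0.08 in replicate 1. Replicate 2 had 120 expected counts (99.5 to 143) and a TPM of 0.20. Csf1r was thus the only member with a higher TPM in replicate 2, and it lay under Flt3 by 15.5-fold in replicate 1 and 2.60-fold in replicate 2.

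The Csf1r value is uncertain in position as well as in number. In replicate 1 all 25 expected counts were given to Csf1r-201, and in replicate 2 all 120 were given to Csf1r-202. The posterior mean count gave Csf1r-202 6.54 in replicate 1 (posterior SD 5.52) and Csf1r-201 1.17 in replicate 2. Csf1r-202 is set apart by 1015 bases at its 3′ end, chr18:61131135-61132149, and 873 of them are also exon of Hmgxb3 on the opposite strand. Hmgxb3 had 1718 expected counts and a TPM of 3.86 in replicate 1, and 3040 and 4.64 in replicate 2. Whether the counting used strand is not stated, so reads of Csf1r and Hmgxb3 over those bases cannot be told apart.

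Pdgfra, the receptor gene for PDGF-A (ENSMUSG00000029231.11, chr5:75152292-75198215, plus strand), had 0 expected counts in both libraries, for the gene and for each of Pdgfra-201 and Pdgfra-202. Of protein-coding genes, 41.2% had 0 counts in both. A floor of 3 counts per library would be 0.0052 TPM in replicate 1 and 0.0035 in replicate 2. Kit was 8293-fold above that floor in replicate 1 and 7929-fold above it in replicate 2. The floor is a chosen value and not an upper limit for Pdgfra. The deposited upper bound of the Pdgfra TPM was higher, at 0.0081 in replicate 1 and 0.0055 in replicate 2. The order of the levels in both libraries was Kit, then Pdgfrb and Flt3 without an order between them, then Csf1r, then Pdgfra. With at least 1 TPM in each library as the rule, 1 of the 5 members, Kit, was detected, against 39.4% of protein-coding genes. With at least 10 expected counts in both libraries as the rule, the count was 4, all but Pdgfra. In rescaled TPM it was 3, since Pdgfrb had 6.69 in replicate 1 and 2.19 in replicate 2 and Flt3 had 4.85 in replicate 1 and 2.53 in replicate 2. The share of all protein-coding genes that pass these looser rules was not counted, so the 39.4% is no measure for them.

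Between the libraries the rarer members differed more than Kit did. In TPM, replicate 1 was higher by 3.80-fold for Pdgfrb and 2.38-fold for Flt3, and replicate 1 had 0.40 times the level of replicate 2 for Csf1r. In counts scaled by TMM the log2 ratio of replicate 1 over replicate 2 was 0.08 for Kit, 0.93 for Flt3, 1.58 for Pdgfrb and -2.05 for Csf1r. The median log2 ratio of 9003 protein-coding genes was 0.32 in TPM and -0.02 with TMM, and the TPM ratios of the members are to be read against that shift. Of the members with counts, Pdgfrb and Csf1r stayed past 2-fold with TMM and Kit and Flt3 did not. Of 9033 protein-coding genes averaging at least 1 TPM, the share past 2-fold was 15.0% in TPM, 11.9% in rescaled TPM, and 8.35% with either TMM or DESeq2 factors. Kit and Pdgfrb belong to these genes, and Flt3 and Csf1r are rarer than they are.

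**Figure D3:**
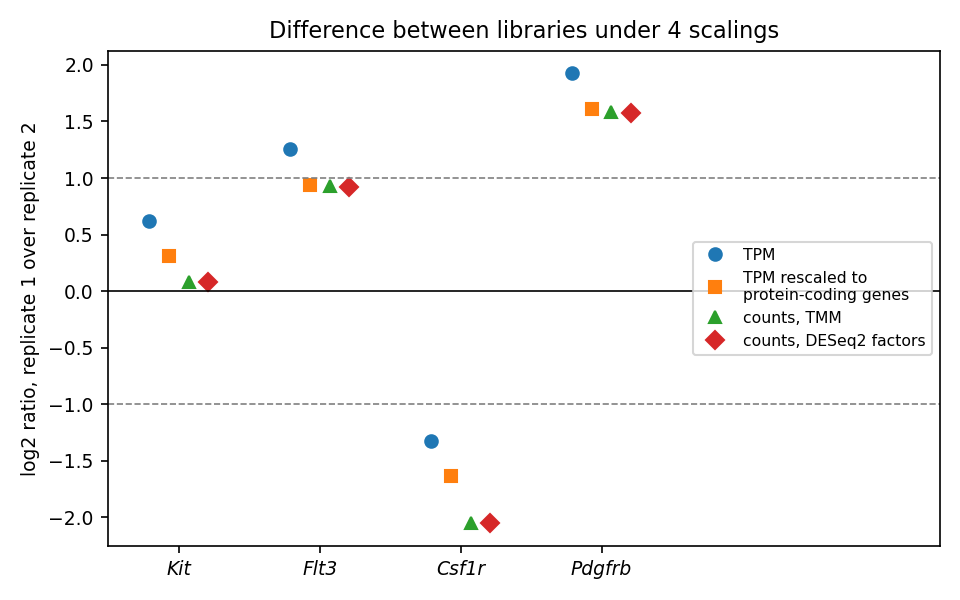
The log2 ratio of replicate 1 over replicate 2 for the 4 members with counts, under 4 scalings marked by symbol, with dashed lines at 2-fold. Kit stays under 2-fold in all 4, Pdgfrb stays above 2-fold with replicate 1 higher, Csf1r stays past 2-fold with replicate 2 higher, and Flt3 passes 2-fold in TPM but lies at 0.92 to 0.94 in the other 3.

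Markers of other cells in which these receptors are known were counted in part. Of 12 macrophage and monocyte genes, the cells of CSF1R, 1 reached 1 TPM in each library, against 39.4% of protein-coding genes. Adgre1, C1qa, C1qb and Siglec1 had 0 counts in both, as had 41.2% of protein-coding genes. The summed TPM of the 12 genes was 4.76 in replicate 1 and 7.05 in replicate 2. The detected one, the chemokine receptor gene Ccr2, had 1.88 in replicate 1 and 5.08 in replicate 2, and the lysosomal gene Cd68 had 0.90 in replicate 1 and 1.40 in replicate 2. Without Ccr2 the other 11 genes summed to 2.88 in replicate 1 and 1.97 in replicate 2. C1qc had 81 expected counts (0.91 TPM), Mrc1 68 and Fcgr1 7 in replicate 1, and all had 0 in replicate 2. Cx3cr1 had 121 expected counts in replicate 1 and 209 in replicate 2. With TMM, 2 of the 5 genes counted in both libraries were higher in replicate 1 and 3 in replicate 2. The part of such cells in the Csf1r value was not tested.

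Of 10 genes of stromal, mural and endothelial cells, the usual sites of the PDGF receptors, 1 was detected, against 39.4% of protein-coding genes. With 0 counts in both libraries were 6 (Col1a1, Col3a1, Acta2, Cdh5 and the pericyte genes Rgs5 and Cspg4), against 41.2% of protein-coding genes. The summed TPM of the 10 genes was 4.37 in replicate 1 and 2.46 in replicate 2, higher in the library with more Pdgfrb. The endothelial and platelet adhesion gene Pecam1 made up most of it, with 3.88 in replicate 1 and 1.90 in replicate 2, and the other 9 genes summed to 0.49 in replicate 1 and 0.56 in replicate 2. Col1a2, a collagen gene of fibroblasts, had 112 expected counts in replicate 1 and 49 in replicate 2. In TPM it had 0.24 in replicate 1 and 0.25 in replicate 2, so it shared the direction of Pdgfrb in counts only. The stromal genes Cxcl12 and Lepr had 32 and 11 expected counts in replicate 1 and 138 and 0 in replicate 2. The part of such cells in the Pdgfrb value was not tested.

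Of 10 lymphoid and dendritic genes, from lineages that use FLT3, 3 were detected, against the 39.4% of all protein-coding genes. Ccr7 and Cd3e had 0 counts in both libraries, as had 41.2% of protein-coding genes. The interferon-responsive gene Bst2 had 19.8 TPM in replicate 1 and 7.91 in replicate 2, the transcription factor gene Zbtb46 had 5.96 in replicate 1 and 7.21 in replicate 2, and the DNA polymerase gene Dntt had 2.80 in replicate 1 and 2.20 in replicate 2. The summed TPM of the 10 genes was 28.9 in replicate 1 and 17.8 in replicate 2. Without Bst2 the other 9 genes summed to 9.01 in replicate 1 and 9.86 in replicate 2, so the direction of the sum depended on Bst2. With TMM, 2 of the 5 genes counted in both libraries were higher in replicate 1 and 3 in replicate 2. Of 8 mast cell genes, a lineage that keeps KIT, 1 was detected, against 39.4% of protein-coding genes. Mcpt4, Tpsb2 and Mrgprb2 had 0 counts in both libraries, as had 41.2% of protein-coding genes. The carboxypeptidase gene Cpa3 had 6.81 in replicate 1 and 1.53 in replicate 2, and the IgE receptor gene Ms4a2 had 1.43 in replicate 1 and 0.60 in replicate 2. The histamine synthesis gene Hdc had 0.12 in replicate 1 and 0.57 in replicate 2. The summed mast cell TPM was 9.11 in replicate 1 and 2.93 in replicate 2, or 2.30 and 1.40 in replicates 1 and 2 without Cpa3, and the part of such cells in the Kit, Kit-203 or Flt3 values was not tested.

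Of the ligand genes, that of KIT itself had no counts and that of 1 PDGF was counted in both libraries. Kitl, which encodes stem cell factor, had 0 expected counts in both libraries, as had Il34, a CSF1R ligand gene, and Pdgfc, a PDGF receptor ligand gene. Csf1 had 25 expected counts in replicate 1 and 0 in replicate 2, Pdgfa had 49 in replicate 1 and 0 in replicate 2, and Pdgfb had 8 in replicate 1 and 0 in replicate 2. Pdgfd, a ligand gene of PDGFRB, was counted in both libraries, with 342 expected counts and a TPM of 1.81 in replicate 1 and 322 and 0.93 in replicate 2. In rescaled TPM it had 7.09 in replicate 1 and 4.52 in replicate 2, so it was detected on that scale and by the rule of 10 counts. In all, 0 of 7 ligand genes reached 1 TPM in each library, against 39.4% of protein-coding genes, and 3 had no counts, against 41.2%. Flt3l was not matched and was not analysed here.

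The signalling genes downstream of KIT were broadly present. Of 69 adaptor, kinase, phosphatase and inhibitor genes, 54 were detected, which is 78.3% against 39.4% of protein-coding genes. Among detected genes their levels were close to those of other genes, with a median mean TPM of 8.32 for the 54 and 8.13 for all 8452 detected protein-coding genes. Of the 69 genes 2 were at or above the mean of Kit, with Ptpn6 the higher at a mean TPM of 50.5.

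Adaptor genes were detected in 10 of 13 cases. Vav1, a guanine nucleotide exchange factor gene of blood cells, had 33.5 TPM in replicate 1 and 18.5 in replicate 2, and Grb2, the adaptor that brings SOS to the receptor, had 19.4 in replicate 1 and 8.70 in replicate 2. Those not detected were Gab2, with 1.45 in replicate 1 and 0.67 in replicate 2, Dok2, with 2.81 and 0.85 in replicates 1 and 2, and Sh2b2, with 0.47 in replicate 1 and 0 counts in replicate 2. Of the SRC family and other cytoplasmic kinases 5 of 9 were detected. Btk, best known from B cell receptor signalling, led with 30.9 in replicate 1 and 25.8 in replicate 2, followed by Jak2, the kinase of the erythropoietin receptor, with 22.9 in replicate 1 and 17.4 in replicate 2.

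The SRC kinases split by member. Lyn and Fyn, which bind the juxtamembrane part of KIT, were detected, with 12.7 in replicate 1 and 6.63 in replicate 2 for Lyn and 9.98 in replicate 1 and 6.28 in replicate 2 for Fyn, both named outside the rule for genes after their values were seen. Src had 0.35 in replicate 1 and 0.16 in replicate 2, and Yes1 had 0.02 in replicate 1 and 0.05 in replicate 2. Fes, a kinase of another family, had 2.43 in replicate 1 and 0.23 in replicate 2.

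The PI3K and AKT genes were detected in 9 of 10 cases, led by Pik3r1, a regulatory subunit that docks on phosphorylated receptors, with 26.3 in replicate 1 and 24.8 in replicate 2. Akt2, a kinase that PI3K products activate, followed with 15.8 in replicate 1 and 17.7 in replicate 2, and Pik3cb, a catalytic subunit gene, was not detected, with 0.77 in replicate 1 and 1.19 in replicate 2. Of the RAS and MAPK genes 10 of 11 were detected. Nras, a RAS GTPase gene, had 24.1 in replicate 1 and 11.6 in replicate 2. Rras, the exception, had 0.35 in both libraries.

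All 4 STAT genes were detected. Stat5a, an effector of KIT and of the erythropoietin receptor, had 16.8 in replicate 1 and 12.1 in replicate 2. Stat5a and Stat5b are close paralogs, so the counting can divide shared reads between them. Of the phospholipase and protein kinase C genes 3 of 4 were detected, with Plcg1 at 3.93 in replicate 1 and 4.15 in replicate 2, Plcg2 at 4.55 in replicate 1 and 1.99 in replicate 2, and Prkcb not detected at 0.05 in replicate 1 and 0.77 in replicate 2.

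Among the phosphatases and other brakes 13 of 18 were detected. Ptpn6, which encodes SHP-1, a phosphatase that acts against KIT signalling, was the highest gene of the whole list, with 50.4 in replicate 1 and 50.6 in replicate 2. The feedback genes Socs1, Socs2, Socs3, Spry1 and Spry4 were the 5 not detected, with values between 0 and 0.95 in either library. Of the 57 signalling genes averaging at least 1 TPM, Dok2 and Fes were past 2-fold between the libraries with TMM, both higher in replicate 1, at log2 ratios of 1.09 and 3.05, while 8.35% of all protein-coding genes at that filter were.

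**Figure D4:**
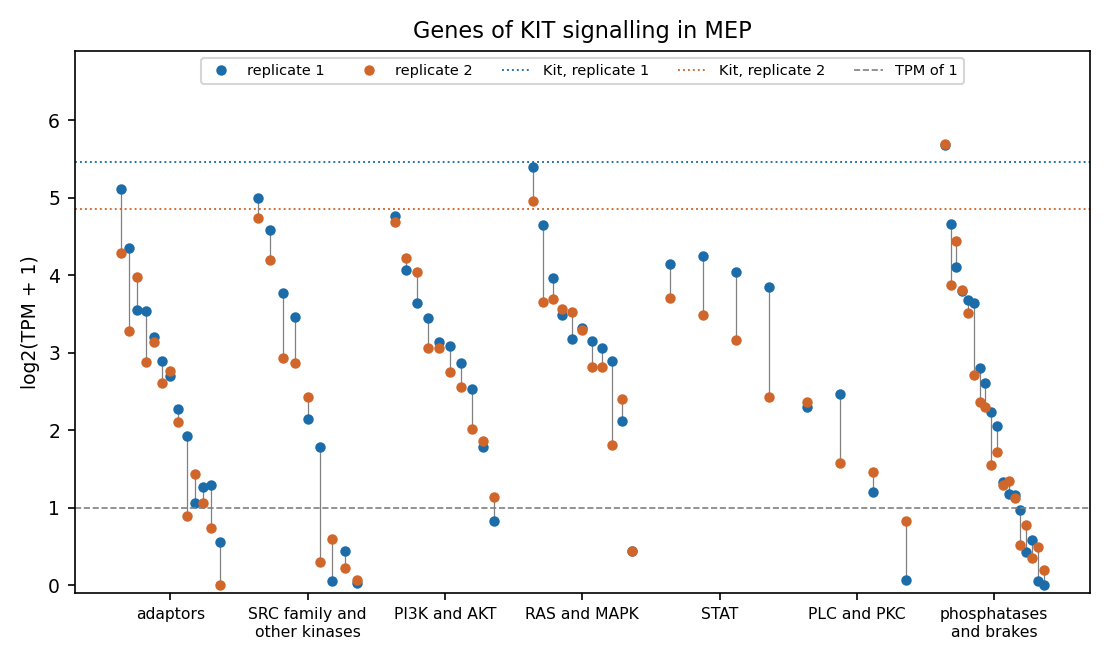
Levels of the 69 signalling genes as log2(TPM + 1), grouped by role and ordered by mean, with 1 point for each library and a line joining the points of a gene. Dotted lines mark Kit at 43.0 and 27.9 TPM and the dashed line marks a TPM of 1, and 2 of the 69 genes reach the mean of Kit.

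Genes of factors that act at the Kit locus were mostly detected, 8 of 9 against 39.4% of protein-coding genes, led by Myb at 150 TPM in replicate 1 and 108 in replicate 2. Lmo2 and Ldb1, parts of the complex that GATA factors form, had 105 and 79.3 in replicate 1 and 84.4 and 58.0 in replicate 2. Gata1, the erythroid and megakaryocytic factor that represses Kit as erythroid cells mature, had 35.8 in replicate 1 and 31.3 in replicate 2.

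Gata2, which activates Kit in earlier progenitors, was lower than Gata1 in both libraries, at 9.87 in replicate 1 and 6.18 in replicate 2. Tal1 had 15.0 in replicate 1 and 13.7 in replicate 2, and Runx1 had 7.71 in replicate 1 and 3.53 in replicate 2. Zfpm1, the GATA1 cofactor FOG1, went the other way in TPM, with 11.4 in replicate 1 and 21.7 in replicate 2. With TMM its log2 ratio of replicate 1 over replicate 2 was -1.44. On that scale 4 of the 9 genes were higher in replicate 1 and 5 in replicate 2. Mitf, the factor through which Kit is driven in mast cells and melanocytes, was the one not detected, with 0.75 in replicate 1 and 0.25 in replicate 2.

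Of 8 other receptor genes, Epor alone was detected, against 39.4% of protein-coding genes. It had 8.38 in replicate 1 and 9.39 in replicate 2, under Kit in both libraries. Tek and Tie1, the angiopoietin receptor and its relative, had 2.53 and 0.67 in replicate 1 and 0.44 and 0.28 in replicate 2. In rescaled TPM Tek and Tie1 had 9.90 and 2.62 in replicate 1 and 2.14 and 1.36 in replicate 2. Both thus reached 1 on that scale. Of the VEGF receptor genes, which are the class nearest in structure, Kdr had 0.23 in replicate 1 and 0.13 in replicate 2 and Flt1 and Flt4 had 0 counts in both. Fgfr1 had 1 expected count in replicate 1 and 55 in replicate 2.

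The members lie in clusters from old duplications, and the neighbours of Kit had few or no counts. Pdgfra lies on one side of Kit at 376.7 kb with 0 counts, and Kdr lies on the other side at 276 kb with a TPM of 0.23 and 0.13 in replicates 1 and 2. Beyond Pdgfra, Gsx2 at 74.4 kb had 0 counts in both libraries. Flt3 lies between Urad, at 8.3 kb with 0 counts in both, and Pan3, at 29.7 kb, which had 49.8 TPM in replicate 1 and 40.8 in replicate 2. Pdgfrb and Csf1r are 15.5 kb apart, with Cdx1, at 0 counts, on the other side of Pdgfrb at 8.95 kb.

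By distance of log2(TPM + 1) over the 2 libraries, the protein-coding genes nearest to Kit were Tmem123, Spata5, Sptssa, Thumpd1 and Snap23. Their TPM lay between 42.9 and 44.6 in replicate 1 and between 27.5 and 29.0 in replicate 2. Nearest to Flt3 were Rassf7, Zfp667 and Usp53, at 1.23 to 1.25 in replicate 1 and 0.55 in replicate 2. With 2 libraries this measure speaks of level alone.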

How the data were processed

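Expected counts, TPM and FPKM are, per the file headers, the authors' deposited values for each gene and transcript. The same tables hold posterior mean counts with their SD, effective lengths, each transcript's percent of its gene and lower and upper TPM bounds, a signal whose confidence level the deposited files do not state. Build mm10 and GENCODE M4 are named in the deposited text files. The quantifying program was not given in the sources used here. Each library has tables of its own. Symbols, classes and coordinates came from GENCODE M21 on the same assembly, by gene ID without version (42462 of 43346 rows matched, 884 did not). Of 140 list genes 1 was not matched.

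Detected means at least 1 TPM in each library. A gene at 0 was set against a floor of 3 counts per library. Poisson intervals and floors cover counting error only. The deposited posterior values also carry the division of reads between transcripts. In replicate 1 the 12819 expected counts of Kit-201 had a posterior SD of 479. None of these covers the spread between libraries. Libraries were compared in TPM, in TPM rescaled over nuclear protein-coding genes, and in expected counts rounded to whole numbers and scaled by TMM (edgeR 4.0.16) or DESeq2 1.42.0 size factors (R 4.3.3). The total used for rescaling left out the globin genes. The count scaling was tested on simulated counts with a known depth and equal numbers of genes raised and lowered. That setting cannot speak to the differences between TPM and scaled counts in these libraries. Other steps used Python 3.11.15, pandas 2.3.3, numpy 2.4.6, scipy 1.17.1 and matplotlib 3.10.9.

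The members and lists were chosen with earlier results of these data known. Named genes are all members, ligands, related receptors and regulators of Kit, the 2 highest signalling genes of each role and those under a TPM of 1 in either library, marker genes averaging at least 1 TPM, the genomic neighbours, and the 5 and 3 genes nearest in level to Kit and Flt3. Other marker genes named, and the marker sums without the highest gene, were chosen after their values were seen. A few genes that this rule takes are not reported here.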

Additional observations from a re-analysis of the deposited data

How the results depend on the processing

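With at least 10 expected counts as the rule 4 members were detected, and in rescaled TPM 3, against 1 in TPM. The signalling genes detected were 64 and 62 against 54. The share of all protein-coding genes was not counted under these looser rules, so these numbers have no background to be read against. A pseudocount of 1 lowered the log2 ratio of Kit over Flt3 to 4.27 (5.43 without it). It lowered that over Csf1r to 4.97 (8.10) and that over Pdgfrb to 4.17 (5.30), since adding 1 raises a low TPM by a larger factor. Genes past 2-fold between the libraries numbered 1359 in TPM, 1075 in rescaled TPM, 754 with TMM, 754 with DESeq2 factors and 2422 with no filter on the mean. Of these, 79.2% were higher in replicate 1 in TPM, against 54.4% in rescaled TPM, 55.7% with TMM, 55.3% with DESeq2 factors and 72.7% with no filter. Flt3 fell under 2-fold at log2 ratios of 0.94 in rescaled TPM, 0.93 with TMM, 0.92 with DESeq2 factors and 0.56 with a pseudocount of 1, and that pseudocount gave 0.90 for Pdgfrb and -0.15 for Csf1r. No ratio changed sign.

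With 1 library left out, the log2 ratio ranged over 5.12 to 5.75 for Kit over Flt3, 7.13 to 9.07 over Csf1r and 4.65 to 5.96 over Pdgfrb, and the detected signalling genes over 55 to 57. Each library alone gave Kit-201 a share of 65.4% (replicate 1) or 27.1% (replicate 2) of the gene's TPM, Kit-204 one of 19.2% or 71.1%, and Kit-203 one of 14.5% or 0.143%. Depth limits Csf1r, whose 25 and 120 counts leave wide intervals. With 2 libraries of 1 group, no member's difference between them was tested, and the shares of Kit transcripts rest on 1 library each.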
